A study of Mus musculus with 2 samples.

Results

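The 39 genes described here mark T cells and natural killer (NK) cells, and they were followed in 2 libraries labelled as mouse neutrophils. They were chosen by name, for their roles in these cells, and make up 39 of the 55536 annotated genes in the main gene table. Each symbol was found in both libraries by joining the name in the transcript table to the gene identifier. The study sequenced total RNA of neutrophils, short-lived granulocytes, from peripheral blood of adult C57BL/6J mice aged 5 to 6 weeks. All samples form a single group with biological replicates 1 and 2, and the labels give no allele, agent or time point. The labels give ScriptSeq v2 as the library kit, 100 ng of starting RNA and a size range of 200 to 1000. They list the same donor for both libraries and no sex, and any spread between the pair may therefore be technical.

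T cells recognise peptides on other cells with a receptor of alpha and beta chains, which signals through the CD3 chains and the zeta chain. The coreceptors CD4 and CD8 bind class II and class I molecules and bring the kinase Lck to that receptor. Naive T cells depend on interleukin-7 and on the factors encoded by Tcf7 and Lef1, while cytotoxic T cells and NK cells carry perforin and granzymes in granules. None of these genes is a defining gene of the neutrophil.

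Depth was 22646991 expected counts (estimated reads per gene, which need not be whole) in replicate 1 and 21471673 in replicate 2. A gene with no count lies below 0.132 and 0.140 CPM (counts scaled to the library total), a limit that takes 3 counts as the most that a count of 0 allows. Levels between genes are compared in TPM, which divides by transcript length. Nuclear protein-coding genes held 8.81% and 8.35% of all TPM, so that 1 TPM equals 11.3 and 12.0 TPM in replicates 1 and 2 when these genes alone are summed. The label was checked against marker lists. All 12 neutrophil markers reached 1 TPM in both libraries with medians of 71.7 and 69.8 TPM, and so did all 12 B-cell markers, with medians of 44.67 and 38.98 TPM.

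Every one of the 39 genes had at least 10 expected counts in both libraries, and 30 had at least 100. Together they held 15996 and 15600 expected counts, or 0.0706% and 0.0727% of each library. At a threshold of 1 TPM in both libraries, 24 of 39 genes (61.5%) were detected, whereas 34.9% of all annotated protein-coding and T-cell receptor constant genes passed it. The counts of detected genes in the smaller lists below are to be read beside that 34.9%. A list near it is not set apart from other genes. A further 12 were below 1 TPM in both libraries, and Zap70, Themis and Nkg7 passed in a single library. The median of the 39 genes was 1.84 TPM in replicate 1 and 1.51 TPM in replicate 2. In a bulk sample, few cells of a type and little RNA per cell cannot be told apart, and the share of T or NK cells is not measured by these levels.

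**Figure D1:**
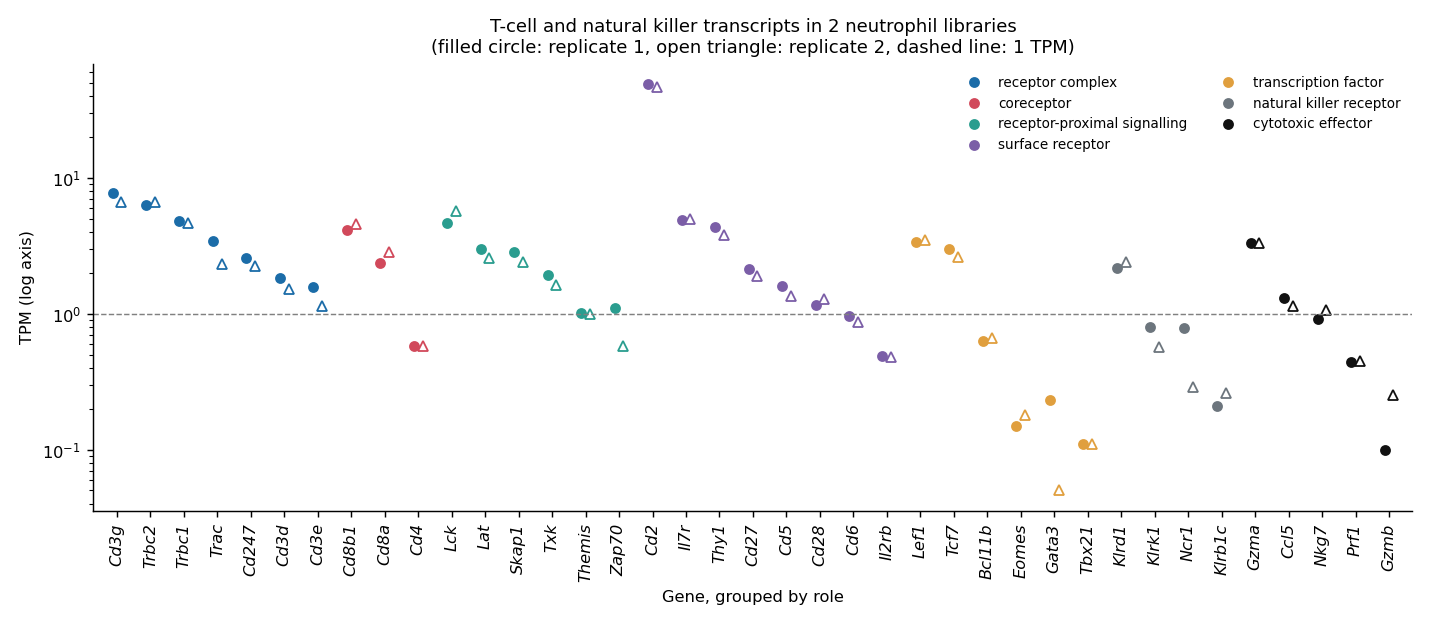
TPM of each of the 39 genes on a log axis, grouped by role, with a filled circle for replicate 1, an open triangle for replicate 2 and a dashed line at 1 TPM. All 7 receptor complex genes lie above the line, Cd2 stands apart at 49.2 and 46.9 TPM, and 4 of the 6 transcription factor genes lie below the line.

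Over all transcripts of a gene, 7 of 7 genes of the antigen receptor and its signalling chains reached 1 TPM in both libraries. Their medians were 3.42 and 2.33 TPM. Cd3g, which encodes the gamma chain of CD3, had the highest mean of them, with 7.74 TPM in replicate 1 and 6.62 in replicate 2, where Trbc2 was slightly higher at 6.66. Cd3g had 603 and 559 expected counts. By mean TPM of the alignment-free table, Trbc2 (12.3) and Trbc1 (11.1) stood above Cd3g (10.9). The other CD3 chains were lower. Cd3d had 1.84 and 1.51 TPM, and Cd3e had 1.57 and 1.15 TPM. By coding transcripts alone, Cd3e had 1.40 and 0.94 TPM and did not reach 1 TPM in replicate 2. Cd3g stood 4.93 and 5.76 times above Cd3e and 4.21 and 4.38 times above Cd3d in TPM, although the chains sit in one receptor complex. Both ratios were smaller with the alignment-free table, at 2.97 and 3.27 over Cd3e and 2.29 and 2.60 over Cd3d. All these genes lie close together on chromosome 9 of GRCm38, Cd3g at 44969572 to 44980431, Cd3d at 44981786 to 44987339 and Cd3e at 44998740 to 45009627. Cd247, the gene of the zeta chain, had 2.56 and 2.26 TPM. Trac, the constant region of the alpha chain, had 3.42 TPM in replicate 1 and 2.33 in replicate 2.

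Both constant genes of the beta chain were present at like levels. Trbc1 (chromosome 6 at 41538218 to 41539881) had 270 and 265 expected counts, and Trbc2 (chromosome 6 at 41546730 to 41548352) had 325 and 349. In TPM, Trbc1 stood at 4.83 and 4.69 and Trbc2 at 6.32 and 6.66, so that Trbc2 took 57.7 ± 1.41% of their sum (SD, n = 2). These genes are near copies, and how reads are divided between them bears on that share. Their first exons, 375 bases long, differ by 1 substitution, C260A (the Trbc1 base first, counted from 1 at the 5′ end of the Trbc1 transcript), an identity of 99.7%. The remaining 143 coding bases, spliced from exons 2 to 4, hold 22 mismatches, an identity of 84.6%. They are shown because reads across the mismatches, in capitals, are nearly all that separates the genes within the coding sequence. The stretches span chr6:41539114-41539662 and chr6:41547610-41548178 on the plus strand of GRCm38.
Trbc1-202: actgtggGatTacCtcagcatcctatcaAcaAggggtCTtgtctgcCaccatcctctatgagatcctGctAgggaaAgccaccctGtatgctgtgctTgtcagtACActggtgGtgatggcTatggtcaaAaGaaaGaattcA
Trbc2-201: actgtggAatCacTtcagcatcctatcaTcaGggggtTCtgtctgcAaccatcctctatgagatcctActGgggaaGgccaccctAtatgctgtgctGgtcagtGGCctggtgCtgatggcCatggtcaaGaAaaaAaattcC

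The alignment-free table divided the same pair almost evenly, with 518 and 442 estimated counts on Trbc1 against 483 and 540 on Trbc2, a Trbc2 share of 52.6 ± 5.61% in TPM. Its order of the genes thus turned between the libraries, Trbc1 being higher in replicate 1 and Trbc2 in replicate 2. The aligned tables on M21 and M4 had Trbc2 above Trbc1 in both libraries, and the division of reads within the pair is uncertain.

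Of the coreceptors, both CD8 genes reached 1 TPM in both libraries and Cd4 did not. Cd8a, whose product forms CD8 as a homodimer or with the beta chain, had 618 expected counts and 2.38 TPM in replicate 1 and 708 counts and 2.83 TPM in replicate 2. Cd8b1, the beta chain found on conventional CD8 T cells, had 530 and 594 counts and 4.11 and 4.56 TPM. Cd4, the coreceptor of helper T cells, had 159 and 167 counts and 0.58 TPM in both libraries. The CD8 values did not overlap those of Cd4. In TPM, Cd8a stood 4.10 and 4.88 times above Cd4, and Cd8b1 stood 7.09 and 7.86 times above it. On the log2(TPM + 1) scale the mean of both CD8 genes exceeded Cd4 by 1.47 ± 0.11 (SD, n = 2), more than the libraries differed. Both libraries list the same donor, so that spread may be technical. A pseudocount of 1 shrinks differences between genes near 1 TPM, so the value of 1.47 understates the ratio.

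The CD8 excess held in each of the deposited tables. Cd8a over Cd4 was 3.80 and 4.41 in alignment-free TPM and 3.47 and 3.78 in TPM on the older M4 gene models. Counting coding transcripts alone gave 3.54 and 3.33, since Cd8a-203, a transcript that retains an intron, took 0.47 and 0.90 TPM of the gene. For Cd8b1 over Cd4 the coding transcripts gave 7.61 and 7.86. Cd8b1 exceeded Cd8a in TPM by 1.73 and 1.61 times but had fewer counts, at 0.858 and 0.839 of the Cd8a count, and TPM divides by its shorter effective length. On GRCm38, chromosome 6 carries Cd8b1 at 71322788 to 71337494, Cd8a at 71373427 to 71379173 and Cd4 at 124864692 to 124888221.

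Genes of the helper and regulatory lineage gave few detected members, 3 of 14. Cxcr5 (17.8 and 18.1 TPM), a homing receptor of follicular helper T cells and B cells, Zbtb7b (7.81 and 9.78 TPM), the factor that directs the CD4 fate, and Ccr6 (6.31 and 6.71 TPM), a chemokine receptor, were the 3. Cxcr5 and Ccr6 are also B-cell genes, and the B-cell list stood at 12 of 12 with a summed level of 755 and 678 TPM and no member at 0. Its part in these levels was not tested. The lowest member was the cytokine gene Il17a with 3 and 1 counts. Of the CD8 and memory list, 2 of 15 genes were detected. They were Cd226 (4.30 and 3.75 TPM), an activating adhesion receptor, and Runx3 (2.06 and 2.22 TPM), a factor of the CD8 fate. Cd96 followed with 1.16 and 0.92 TPM, and the inhibitory receptor Tigit had no count in either library.

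The kinases and adaptors next to the receptor were detected in 4 of 6 cases, with medians of 2.38 and 2.02 TPM. Lck, which phosphorylates the CD3 chains, was highest over all transcripts of a gene, at 4.66 and 5.71 TPM. Lat, the membrane scaffold, had 2.99 and 2.56 TPM. Skap1, an adaptor that links the receptor to integrins, had 2.84 and 2.40 TPM, and Txk, a Tec-family kinase, had 1.92 and 1.64 TPM. Themis, which acts in thymocyte selection, lay at the threshold with 1.02 and 0.99 TPM. Zap70, the kinase that docks on phosphorylated CD3 chains, had 1.10 TPM in replicate 1 and 0.58 in replicate 2.

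Zap70 changed order between the libraries once its transcripts were separated. A retained-intron transcript, Zap70-204, held 81.5 of the 136 expected counts in replicate 1 but 2.84 of the 94 in replicate 2. The alignment-free table gave it 98.4 and 0 estimated counts. The full-length coding transcript Zap70-201 had 45.1 and 81.1 expected counts, and coding transcripts summed to 0.26 and 0.40 TPM. So the gene level was higher in replicate 1, while its coding level was higher in replicate 2. Lck showed an uneven split as well. Its count was 486 and 472, yet its TPM was higher in replicate 2. There the short retained-intron transcript Lck-203 took 2.96 TPM against 1.45 in replicate 1. The coding transcripts of Lck had 1.88 and 1.45 TPM, below those of Lat (2.95 and 2.47 TPM) and Skap1 (2.36 and 1.77 TPM). Of Zap70-204, 133 of 1338 bases lie outside the exons of coding transcripts, and of Lck-203 85 of 568. Few positions thus separate these transcripts from coding forms, and the division of reads within both genes is uncertain.

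Further genes of T-cell receptor signalling were detected in 22 of 26 cases, with medians of 6.93 and 6.12 TPM. Most are shared with other leukocytes. Ptprc, the phosphatase CD45 of all leukocytes, had 234 and 209 TPM, Csk, the kinase that restrains Src-family kinases, 42.9 and 45.3 TPM, and Malt1, a protease in the path to NF-kappaB, 36.4 and 32.8 TPM. Ubash3a, a phosphatase-like inhibitor of T-cell receptor signalling, was lowest with 0.37 and 0.39 TPM.

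Among 8 surface receptors 6 were detected, and Cd2 exceeded all other genes of the set. Cd2, an adhesion receptor that mouse B cells also carry, had 4529 and 4412 expected counts and 49.2 and 46.9 TPM. It made up 37.2% and 37.4% of the summed TPM of the 39 genes and stood 6.36 and 7.04 times above the next gene. B-cell markers in the same libraries were led by the heavy-chain genes Ighm (290 and 261 TPM) and Ighd (85.3 and 78.8 TPM) and the receptor chain Cd79b (80.6 and 73.6 TPM), with the complement receptor Cr2 lowest at 16.4 and 13.5 TPM. Their part in the Cd2 level was not tested. Il7r, the interleukin-7 receptor, had 4.87 and 4.99 TPM, and Thy1, a membrane glycoprotein of mouse T cells, had 4.36 and 3.83 TPM. The short non-coding transcript Thy1-203 took 2.98 and 1.97 TPM of it, and the coding transcripts of Thy1 had 1.37 and 1.80 TPM. Thy1-203 has 0 bases outside the exons of coding transcripts, so the division of reads within Thy1 is uncertain. The costimulatory receptors Cd27 (2.15 and 1.90 TPM) and Cd28 (1.16 and 1.29 TPM) passed the threshold in both libraries, as did Cd5 (1.61 and 1.36 TPM), an inhibitory receptor that a subset of B cells also carries. Its relative Cd6 had 0.96 and 0.87 TPM. Il2rb, the chain shared by the receptors for interleukins 2 and 15, had 0.49 and 0.48 TPM.

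Transcription factors were divided into detected and low genes, with 2 of 6 at 1 TPM or more, near the 34.9% of all protein-coding and constant genes. Lef1 (3.37 and 3.48 TPM) and Tcf7 (2.98 and 2.61 TPM), the related factors of naive T cells, were the 2. Bcl11b, required for commitment to the T lineage, had 492 and 415 counts but 0.63 and 0.66 TPM, since its transcripts are long. Factors of effector cells were lower. Eomes had 0.15 and 0.18 TPM and Tbx21 0.11 TPM in both libraries, each a T-box factor of cytotoxic and NK cells. Gata3, a factor of helper T cells, had 0.23 and 0.05 TPM from 56 and 11 counts. Its deposited TPM lay below the lower bound of its deposited interval, 0.248 in replicate 1 and 0.0999 in replicate 2, while the other 38 genes lay within theirs in both libraries. The alignment-free table gave Gata3 80.3 and 56.4 counts.

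Of 4 NK receptors 1 was detected. Klrd1, which encodes CD94, had 2.19 and 2.40 TPM and is also found on cytotoxic T cells. Klrk1, the activating receptor NKG2D, had 0.80 and 0.57 TPM. Klrb1c, the gene of the NK1.1 antigen, had 0.21 and 0.26 TPM from 44.5 and 53 counts. Ncr1, the receptor NKp46 and the most NK-restricted of them, had 99 and 37 counts and 0.78 and 0.29 TPM. These receptors belong to families with related copies, except Ncr1, and their counts could be split among relatives.

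A wider list of NK receptors and factors was detected in 8 of 22 cases, with medians of 0.40 and 0.29 TPM. This was near the 34.9% of all annotated protein-coding and T-cell receptor constant genes. Its highest genes are shared with myeloid cells. Tyrobp, a signalling adaptor, had 118 and 122 TPM, the Fc receptor gene Fcgr3 58.6 and 56.7 TPM, and Il18rap, a chain of the interleukin-18 receptor, 14.6 and 11.7 TPM. Klrg1, an inhibitory receptor of mature NK cells and effector T cells, was lowest with 2 and 4 counts.

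Of the 5 cytotoxic effector genes 2 were detected, beside 34.9% of all protein-coding and constant genes. Gzma, a granule protease, had 234 counts in both libraries and 3.34 and 3.31 TPM. Ccl5, a chemokine of cytotoxic cells, had 1.31 and 1.14 TPM. Nkg7, a granule membrane protein, had 0.92 and 1.07 TPM, and Prf1, the pore-forming protein perforin, 0.44 and 0.45 TPM. Gzmb, the granzyme made upon activation, had 12 and 31 counts and 0.10 and 0.25 TPM. Gzma exceeded Gzmb 33.4 times in replicate 1 and 13.2 times in replicate 2; few Gzmb counts stand behind this ratio.

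The naive set stood above the cytotoxic set in both libraries. All 5 naive genes (Il7r, Tcf7, Lef1, Cd27 and Cd28) were detected, with medians of 2.98 and 2.61 TPM. By coding transcripts alone, Cd28 had 0.69 and 0.78 TPM and did not reach 1 TPM. Among the 7 cytotoxic genes (the effectors with Tbx21 and Eomes) Gzma and Ccl5 were detected, and the medians were 0.44 and 0.45 TPM. On the log2(TPM + 1) scale the difference of the medians was 1.39 ± 0.11 (SD, n = 2), larger than its spread between the libraries. That spread may be technical as well. The sets overlapped gene by gene, since Gzma was above Tcf7, Cd27 and Cd28 in both libraries. The homing and quiescence list, which naive T cells share with other leukocytes, was detected in 10 of 10 cases, with medians of 15.2 and 14.1 TPM. The factor Ets1 (63.9 and 56.9 TPM) and Klf2 (36.7 and 37.6 TPM), a factor of quiescent lymphocytes, were among its highest members. Foxo1, a factor that promotes Il7r expression in T cells, was lowest with 2.01 and 1.93 TPM.

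T-cell core genes (the receptor complex with Lck, Zap70, Lat, Bcl11b and Themis) stood above the NK core genes (the 4 receptors with Gzma, Gzmb, Prf1 and Eomes). The difference of their medians was 1.25 ± 0.02 log2 units, with 9 of 12 against 2 of 8 genes detected. The spread between libraries does not cover how far the genes of a list differ. Against other cells, the T-cell core median differed by -3.60 ± 0.00357 log2 units from the B-cell median and by -4.29 ± 0.10 from the neutrophil median, and was the lower one each time. Neutrophil markers were led by the calprotectin genes S100a9 (1123 and 1275 TPM) and S100a8 (786 and 712 TPM) and by the cytokine gene Il1b (659 and 579 TPM), and the surface antigen gene Ly6g was lowest with 1.91 and 2.29 TPM.

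Other cell types were represented to different degrees. The monocyte list was detected in 7 of 12 cases, with a summed level of 48.7 and 46.1 TPM. It was led by Nr4a1 (15.9 and 15.3 TPM), Csf1r (7.74 and 6.75 TPM) and Ly6c2 (7.21 and 6.83 TPM). Genes of dendritic cells, subsets of which carry CD4 or CD8 alpha in the mouse, were detected in 2 of 9 cases and summed to 7.89 and 5.97 TPM. Itgax had 5.37 and 3.61 TPM, Cd209a 1.00 and 1.26, Ccr9 0.48 and 0.35, and Xcr1, a receptor of cross-presenting dendritic cells, had 5 and 2 counts. Red cell genes, 6 of 10 detected, summed to 4343 and 4278 TPM, led by the globin genes Hba-a2 (2897 and 2891 TPM), Hbb-bs (874 and 829 TPM) and Hba-a1 (357 and 325 TPM), while Klf1 had 0 and 2 counts. Platelet genes, 6 of 10 detected, summed to 28.2 TPM in both libraries, with Ppbp at 8.70 and 8.77, Tubb1 at 5.31 and 5.82, Pf4 at 5.41 and 5.02 and Gp6 at 0.28 and 0.39 TPM. No gene of these lists was at 0 in both libraries, and their part in the T and NK levels was not tested.

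**Figure D2:**
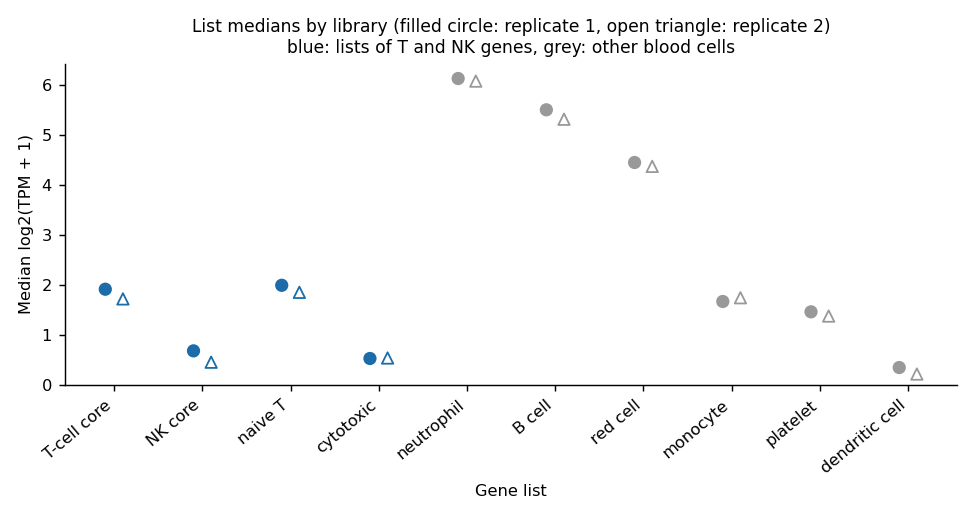
Median log2(TPM + 1) of gene lists in each library, with T and NK lists in blue, lists of other blood cells in grey, a filled circle for replicate 1 and an open triangle for replicate 2. The T-cell core lies at 1.91 and 1.72, above the NK core at 0.68 and 0.45 and below the B-cell list at 5.51 and 5.32.

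Gamma-delta T cells carry another receptor, and none of the 7 genes listed for these cells was detected at 1 TPM. Zbtb16, a factor of innate-like T cells, had 0.56 and 0.37 TPM, and the gamma constant genes Tcrg-C1 and Tcrg-C2 had 0.43 and 0.37 and 0.38 and 0.30 TPM. Tcrg-C4 was lowest with 5 and 1 counts. Reads were nevertheless present, with 65 and 51 expected counts on the gamma constant genes and 42 and 28 on the delta constant gene, against 595 and 614 on the beta constant genes.

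By CPM, all but 3 of the 39 genes differed by less than 2 times between the libraries. A gene was called different between libraries with a fold of at least 2 in TPM + 1, at least 1 TPM in either library and at least 50 counts in the higher one. By this rule 0.923% of 9097 genes were called, and 0 of the 26 members that met its minimums, whose highest fold was 1.33. The added 1 shrinks the folds of genes near 1 TPM, so this 0 cannot show that the libraries were alike. The median log2 CPM ratio of replicate 2 to replicate 1 over the 39 genes was 0.05, against -0.02 over all genes with the same minimum of 10 counts. Counting intervals were finer. The exact 95% interval of the CPM ratio left out 1 for 12 of 39 genes (30.8%), as it did for 37.1% of 14222 genes with at least 10 counts in both libraries, so the members' share was near the background. PCR reads are not independent molecules, and such intervals cover counting error only.

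Of those 12 genes, 8 were higher in replicate 2 by CPM and 4 were lower. The higher genes included both CD8 genes, with a ratio of 1.21 (interval 1.08 to 1.35) for Cd8a and 1.18 (1.05 to 1.33) for Cd8b1. Cd4 had a ratio of 1.11 (0.886 to 1.39). Thy1 (1.32), Cd27 (1.27), Cd3d (1.24), Cd28 (1.19) and Il7r (1.08) also had intervals above 1. By TPM, however, Thy1, Cd27 and Cd3d were lower in replicate 2, where their effective lengths were greater. Genes with ratios beyond 2 in either direction were 3 in number, all under 1 TPM and thus outside the fold rule. They were Gzmb at 2.72 (1.36 to 5.83), Ncr1 at 0.394 (0.263 to 0.580) and Gata3 at 0.207 (0.0979 to 0.400). Txk (0.883) and Zap70 (0.729) were the other lower genes.

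**Figure D3:**
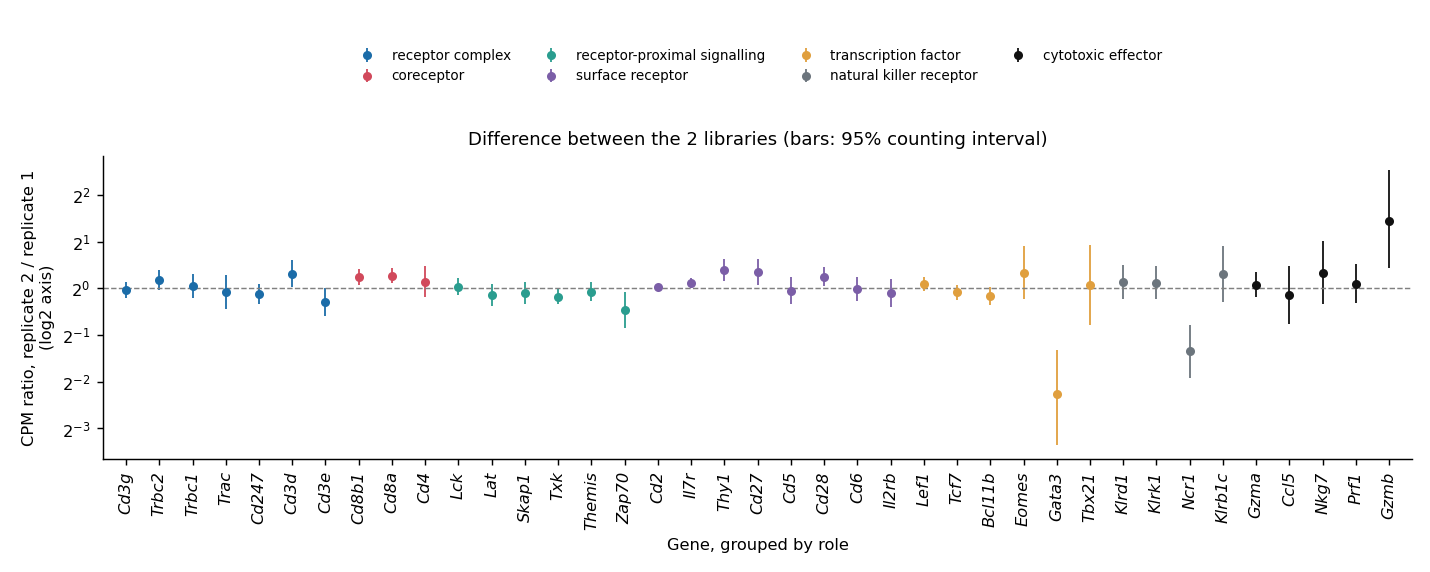
CPM ratio of replicate 2 to replicate 1 for each of the 39 genes on a log2 axis, with bars for the exact 95% counting interval and colours for roles. Most points lie near 1, and Gata3 (0.207), Ncr1 (0.394) and Gzmb (2.72) lie beyond 2 times in either direction.

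Total RNA also holds transcripts that are not fully spliced, and 23 of the 39 genes have annotated transcripts with a retained intron, 45 of 162 transcripts in all. Of the estimated counts of the 39 genes in the alignment-free table, 83.6 ± 0.0507% (SD, n = 2) fell on coding or receptor constant transcripts. For 21 genes at least 90% did so in both libraries, among them Cd2, Cd8b1, Cd4, Gzma, Prf1 and Tcf7. In 8 genes retained-intron transcripts held at least 20% in both. The same shares over all genes were not computed, so these values are not shown to be particular to the 39 genes. Lef1 was divided almost evenly, with 52.2% and 49.7% on coding transcripts, and Tcf7 had none annotated as retained. By coding transcripts alone Lef1 stood at 0.586 and 0.688 of the Tcf7 level, whereas over all transcripts it stood at 1.13 and 1.33.

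Under 50% of the estimated counts lay on coding transcripts in both libraries for 2 of 39 genes, Txk and Nkg7, and for 13.5% of protein-coding and constant genes with at least 10 counts. Txk had 19.6% and 18.4%, and Nkg7 33.7% and 24.5%. Most Txk counts fell on Txk-205, a transcript of 1 exon that covers 4118 bases (97.8% of its length) of the first intron of Txk-201, which is 16259 bases long. It took 429 of 686 expected counts in replicate 1 and 348 of 574 in replicate 2. The coding transcript Txk-201 had 113 and 111, equal to 0.55 and 0.54 TPM, so that coding transcripts alone did not bring Txk to 1 TPM. The junction is shown from the start codon, with the 16 coding bases of exon 1 in capitals and 84 bases of the intron in lower case, chr5:72752595-72752694 on the minus strand of GRCm38.
Txk-205: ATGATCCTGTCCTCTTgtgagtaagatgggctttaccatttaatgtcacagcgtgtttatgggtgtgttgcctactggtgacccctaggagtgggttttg

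Nkg7 rested on a transcript that begins within its first intron. Nkg7-202 held 27.3 of 36 and 34.2 of 43 expected counts, and the coding transcripts summed to 0.14 and 0.12 TPM. Nkg7-202 lacks exon 1 and is set apart by 33 bases of that intron, so few positions separate it from the coding form. These 33 bases are shown in lower case, followed by the first 50 bases of exon 2 in capitals, chr7:43437504-43437586 on the plus strand of GRCm38.
Nkg7-202: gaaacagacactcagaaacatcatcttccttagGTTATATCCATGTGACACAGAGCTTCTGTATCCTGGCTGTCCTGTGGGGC

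**Figure D4:**
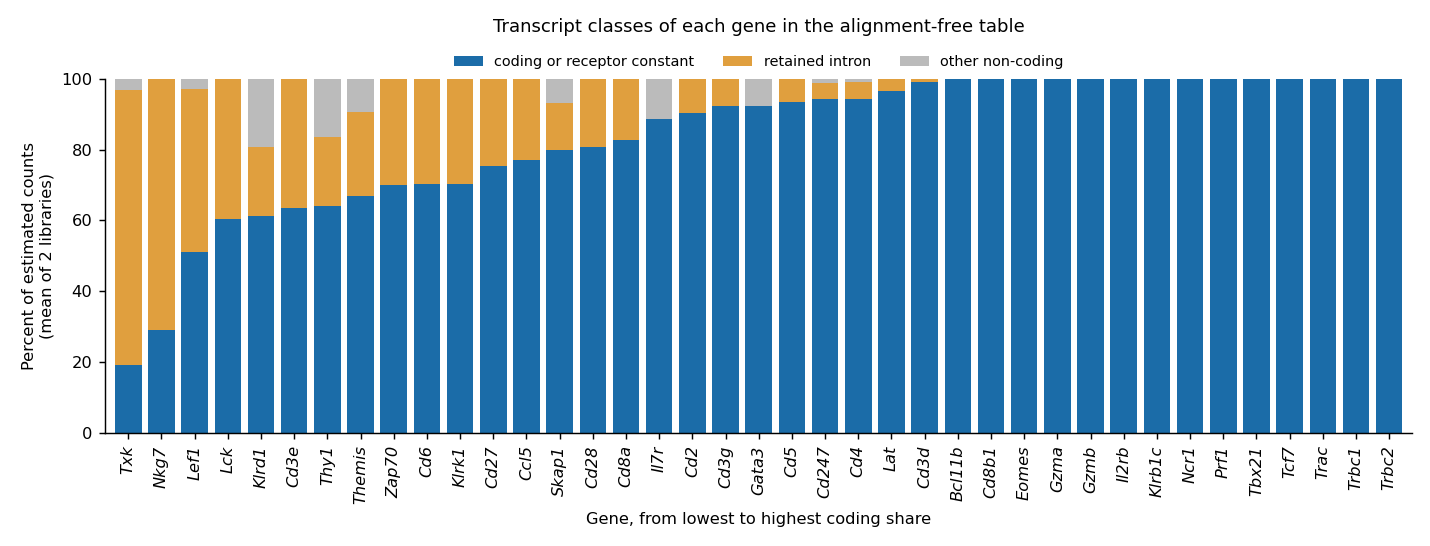
Percent of the estimated counts of each gene on coding or receptor constant transcripts (blue), retained-intron transcripts (orange) and other non-coding transcripts (grey), as the mean of the 2 libraries in the alignment-free table. Txk and Nkg7 lie below 50% coding, and the bars at the right are all coding.

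The deposited tables gave unequal counts for the same genes. All 39 genes had more estimated counts in the alignment-free table than expected counts in the aligned one, with median ratios of 1.34 and 1.30 for these genes and 1.32 and 1.30 for all genes with at least 10 counts. A ratio over 1.5 in both libraries was reached by 4 of 39 genes, Cd3d, Trbc1, Zap70 and Eomes, and 19.9% of all genes differed by more than 1.5 times in one direction. After scaling to the library totals only Cd3d remained of the 39 genes, and the background was 10.5% of all genes. Cd3d had 492 and 445 estimated counts against 184 and 217 expected counts, ratios of 2.68 and 2.05. With the alignment-free table Cd3d stood at 5.16 and 3.84 TPM, above Cd3e at 3.98 and 3.05.

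By counts, 2 of 39 genes had more than 1.5 times as many on M21 as on the older M4 models in both libraries, as was the case for 4.66% of protein-coding and constant genes. Txk had 165 and 150 counts on M4, ratios of 4.16 and 3.83, and Trac had 89 and 64, ratios of 1.53 and 1.92. Prf1 had 48 and 72 counts on M4 against 100 and 102 on M21. By TPM, 4 of 39 genes were over 1.5 times higher on M21 in both libraries, against 8.04% of the same background. They were Txk (0.82 and 0.74 TPM on M4), Cd5 (0.87 and 0.78), Thy1 (1.75 and 2.19) and Nkg7 (0.52 and 0.62). On M4 the detected genes numbered 21, since Txk, Cd5 and Cd3e (1.44 and 0.93 TPM) no longer reached 1 TPM in both libraries. In 11 genes a gene on the other strand overlaps, and whether the tables used strand is not given in the sources used here. Among them, Pou2f1 opposite Cd247 had 2589 and 2514 counts and Vamp1 opposite Cd27 had 1467 and 1356, so that the levels of Cd247 and Cd27 are uncertain. Overlapping genes opposite the other 9 had at most 14 counts.

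**Figure D5:**
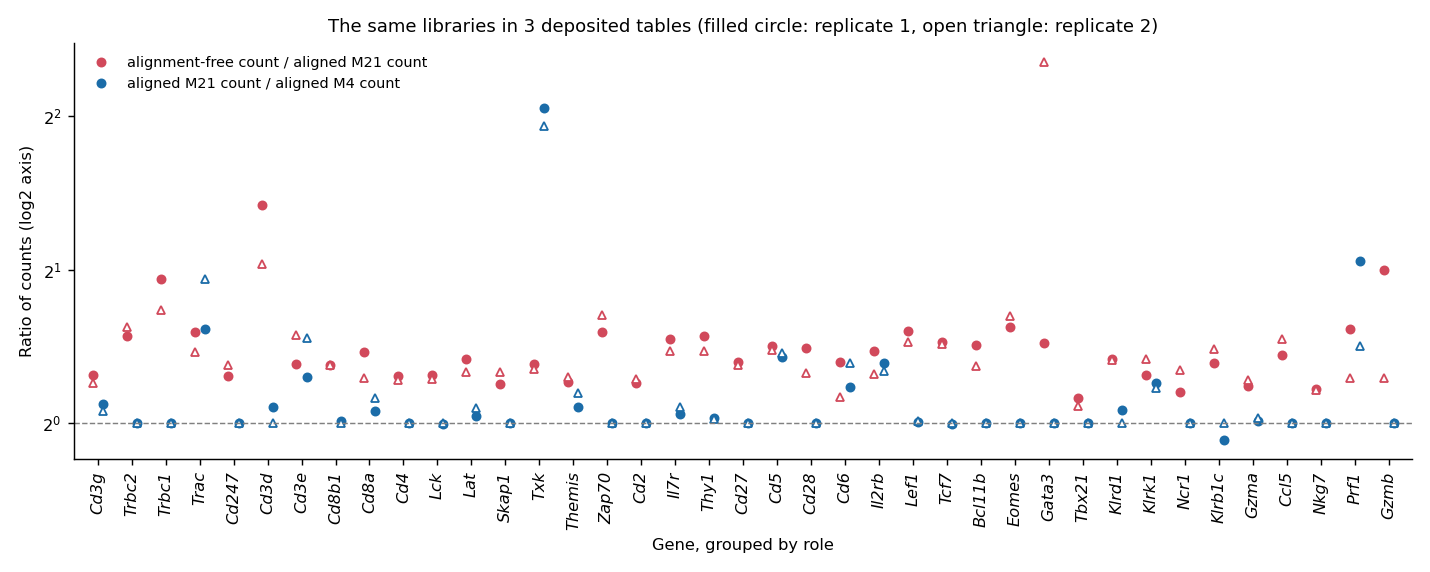
Ratio of counts between deposited tables for each of the 39 genes on a log2 axis, in red the alignment-free count over the aligned M21 count and in blue the aligned M21 count over the aligned M4 count, with filled circles for replicate 1 and open triangles for replicate 2. All red points lie above 1, Cd3d at 2.68 and 2.05, and Txk has the highest blue points at 4.16 and 3.83.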

How the data were processed

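Total RNA of 2 neutrophil libraries was quantified by the authors. Per the file headers, the deposited gene tables give an expected count and a TPM per gene on GENCODE M21 (main table) and M4, both on mm10, from reads aligned to the transcriptome per the deposited file lists. A deposited M21 transcript table adds the percent of a gene's TPM on each transcript, per the file headers. Another deposited transcript table gives an estimated count and TPM per transcript from reads with no alignment among its parents, and is called alignment-free. The M4 transcript tables were not used here. Each program, its version and its strand setting is not given in the sources used here.

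Names, biotypes and coordinates came from the GENCODE M21 annotation (GRCm38), which matched 55536 of 81881 entries. The others held 37.0 and 46.4 counts, 1.63e-04% and 2.16e-04% of the totals, and were left out. CPM divides by the summed expected counts. Expected counts were rounded for the exact conditional binomial 95% intervals of count ratios. The intervals were tested on simulated counts with counting error only, so that test cannot show their coverage on these libraries. Rounded counts also served the scaling alternatives with edgeR 4.0.16 (TMM) and DESeq2 1.42.0 (size factors) in R 4.3.3. Other steps used Python 3.11.15, numpy 2.4.6, pandas 2.3.3, scipy 1.17.1 and matplotlib 3.10.9. Displayed bases were read from GENCODE M21 transcripts.

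The members and lists were chosen with earlier results of these data known. All 39 members are named, and of each further list the 3 genes with the highest mean TPM and the lowest, except that some genes that meet this rule are not reported here. With 1 group there is no test between conditions. Alternatives were another table, TPM rescaled to nuclear protein-coding genes, coding transcripts alone, a pseudocount of 0.1, other thresholds and leaving out each library.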

Additional observations from a re-analysis of the deposited data

How the results depend on the processing

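The 5 differences between gene lists or coreceptors kept their sign under the alternatives run. The order of some single genes did not. Among them were Lef1 against Tcf7, and Lck against Lat and Skap1, with coding transcripts alone. With the alignment-free table, Trbc1 against Trbc2 turned in replicate 1, as did the mean of Cd3g against those of Trbc1 and Trbc2. The naive minus cytotoxic difference was 1.53 with the M4 table, 1.87 with the alignment-free table, 2.44 with TPM rescaled to protein-coding genes, 1.21 with coding transcripts alone and 2.41 with a pseudocount of 0.1. The CD8 minus CD4 difference was 1.68, 2.37, 1.34 and 2.35 under the last 4 of these, in the same order. T-cell core minus NK core was 1.33, 1.59, 2.24, 1.15 and 2.21 under the 5 settings, and T-cell core minus B cell was -3.57, -3.68, -4.00, -3.13 and -3.99. T-cell core minus neutrophil was -4.71 with rescaled TPM and -4.70 with a pseudocount of 0.1. Rescaling and a smaller pseudocount both lessen the weight of the added constant by construction, and the cause of the other shifts was not tested.

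The count of detected genes was 38 with rescaled TPM, 21 with coding transcripts alone, 38 at 0.1 TPM, 3 at 5 TPM and 39 with at least 10 counts. The Trbc2 share was 52.6% with the alignment-free table and 55.7% by expected counts. The table comparison called 1 gene at 2 times and 1 gene after scaling to library totals. The coding share was 79.4% in alignment-free TPM and 85.1% in the aligned transcript table. The coding-transcript and library-total alternatives were chosen after seeing the data. The median log2 ratio between libraries was 0.07 with TMM factors, 0.06 with DESeq2 size factors and 0.01 with the alignment-free table.

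Leaving out 1 of 2 libraries returns the value of the other, which lies within the spread by construction. It gave 1.32 to 1.47 for naive minus cytotoxic, 1.40 to 1.55 for CD8 minus CD4, 1.24 to 1.27 for T-cell core minus NK core and -4.36 to -4.22 for T-cell core minus neutrophil, with -3.60 both times against the B-cell list. There were 25 and 26 detected genes, a Trbc2 share of 56.7% to 58.7% and a coding share of 83.6% to 83.7%. No paired analysis was possible because both libraries belong to a single group. Depth limits genes such as Gata3, Gzmb and Tbx21, which rest on 11 to 56 counts.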

Other observations

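Variable and joining segments of the T-cell receptor were counted as well, and no table separates rearranged from germline transcripts of them. Of 35 beta variable genes 18 had at least 1 expected count in both libraries, with sums of 253 and 246 counts, and Trbv16 (39 and 27 counts) and Trbv29 (18 and 26 counts) had the highest sums over both libraries. Of 128 alpha variable genes 8 did so, with sums of 107 and 92.0 counts. No single beta variable gene held more than 39 counts in either library.

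The tables treated the short joining segments differently. The aligned table listed 0 counts for all 60 alpha and all 14 beta joining genes in both libraries. The alignment-free table gave the alpha joining genes 326 and 317 estimated counts and the beta joining genes 106 and 120. It also gave more counts to the variable genes, with 193 and 166 for alpha and 459 and 444 for beta. The cause of this difference was not tested.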
